A study of Mus musculus with 12 samples.

Results

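The chemokines and their receptors were followed in sorted double-negative thymocytes of 3 mouse genotypes. Members were the genes whose platform symbol is Ccl, Cxcl, Ccr, Cxcr, Cx3cl, Cx3cr, Xcl or Xcr followed by a number, together with Ccrl1, listed here under its present name Ackr4, Ccrl2, and Il8rb, the old name of Cxcr2. The array carried 56 such genes on 84 probes, 36 ligands and 20 receptors, among 19057 genes with a symbol. A gene was tested when a probe was detected on 3 or more of the 12 arrays, detected meaning a detection p-value under 0.05, the chance of that brightness in negative-control beads. This left 23 members, 11 ligands and 12 receptors, of 10526 genes tested.

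The wild-type group held 6 arrays, the Lmo2 group held 3 arrays of mice with a CD2-Lmo2 transgene, and the Lmo2 Lyl1-knockout group held 3 arrays of mice in which this transgene was combined with loss of Lyl1. The strain was C57BL/6 throughout and the age 2 months, and the cells were CD4-CD8 double-negative thymocytes, so the transgene was shared by both altered groups and the knockout was not studied without it. The CD2 promoter acts in T-lineage cells, which limits the transgene to part of the blood system. Per the series title, the question was whether Lyl1 is needed in a mouse model of Lmo2-induced leukaemia of early T-cell precursors. The labels do not say that each array is a separate mouse, so p-values measure the spread between arrays, which may in part be technical. Among the wild-type columns of the raw values, 3 carry the added word NHD13, which the labels do not explain. These arrays are referred to as NHD13-named, as distinct from wild-type replicates 1 to 3.

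Chemokines are small secreted proteins that steer moving cells, and their receptors are G-protein-coupled proteins of the cell surface. In the thymus, Ccl25 from the stroma acts on Ccr9, Ccl19 and Ccl21 act on Ccr7, and Cxcl12 acts on Cxcr4 to bring in progenitors and to place double-negative cells in the cortex. Cytotoxic and innate-like lymphocytes secrete Ccl3, Ccl4, Ccl5 and Xcl1 and carry Cxcr3, Cxcr6 and Cx3cr1. Cxcr2 is a receptor of neutrophils. Lmo2 is a LIM-domain adaptor between DNA-binding factors, and Lyl1 is a basic helix-loop-helix factor that can join it.

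Values are background-corrected, quantile-normalized log2 intensities, and a difference of 1 on this scale is a doubling. Levels of different probes are not comparable, so each gene is compared only with itself. Between 37.9% and 43.0% of the probes of an array were detected, and the dimmest detected probes lay at 5.10 to 5.37. Lyl1 itself had wild-type values of 6.60 to 7.17 and Lmo2 values of 9.80, 9.97 and 11.39, and in the Lmo2 Lyl1-knockout group it was not detected, with values of 4.81, 5.03 and 4.91. Of the defining markers of double-negative thymocytes, Rag1, Il2ra, Il7r and Notch1 were detected on all 12 arrays and Ptcra on all but Lmo2 replicate 1. Some of them differed between the genotypes, as given beside the comparisons. Differences between genotypes are limma's moderated, two-sided tests with Benjamini-Hochberg adjustment over all 10526 genes, and a gene passed at an adjusted p under 0.05. In these bulk samples, fewer cells of a type and less RNA per cell cannot be told apart.

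The comparison of Lmo2 with wild-type arrays asked which chemokine genes differ in transgenic thymocytes. The ligands Ccl5 and Xcl1 and the receptors Cxcr3, Ccr6, Ccr8, Cx3cr1 and Cxcr6 fell, and the ligand Cxcl10 and the receptor Cxcr4 rose. The 7 members that fell were 30.4% of the 23 tested, beside 5.92% of all genes tested. The 2 that rose were 8.70% of the members, beside 6.66% of all genes. Of these 2, Cxcl10 was detected on the 3 Lmo2 arrays alone and entered the test only through the group where it is high. The median member difference was -0.33 and the median of all genes was -0.02. None of these 9 members overlapped between the groups, and 10 of the 23 members did not overlap, beside 14.8% of all genes.

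Ccl5, a ligand that draws T cells and monocytes and is stored by cytotoxic lymphocytes, had a wild-type range of 10.28 to 11.13 with a median of 10.76. It lay at 8.57, 7.08 and 8.43 on the Lmo2 arrays. Every Lmo2 array was below every wild-type array, and replicate 2 was the lowest. Ccl5 fell by 2.67 ± 0.29 (SE, n = 6 and 3; limma adjusted p = 6.81e-05), a 6.37-fold lower intensity. Xcl1, the ligand by which natural killer and T cells draw cross-presenting dendritic cells, ranged from 8.84 to 9.60 on wild-type arrays with a median of 9.16. On the Lmo2 arrays it lay at 7.50, 5.40 and 7.01. Xcl1 also showed no overlap and was lowest on replicate 2. It fell by 2.53 ± 0.37 (SE; limma adjusted p = 0.000589).

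Of the receptors, Cxcr3, which binds Cxcl9, Cxcl10 and Cxcl11 on effector lymphocytes, ranged from 8.53 to 9.17 on wild-type arrays with a median of 8.66. It lay at 7.03, 5.65 and 7.21 on the Lmo2 arrays. Cxcr3 fell by 2.14 ± 0.33 (SE; limma adjusted p = 0.000938), with all Lmo2 arrays below all wild-type arrays. Ccr8, the receptor of Ccl1 on some regulatory and memory T cells, ranged from 6.77 to 7.66 with a median of 7.10 on wild-type arrays. On the Lmo2 arrays it lay at 5.69, 4.92 and 4.74 and was detected on 1 of 3. Ccr8 fell by 2.02 ± 0.27 (SE; limma adjusted p = 0.000329), and its groups stood well apart. Cx3cr1, the fractalkine receptor of monocytes and cytotoxic lymphocytes, ranged from 6.37 to 6.88 with a median of 6.58 on wild-type arrays. It lay at 4.52, 4.75 and 5.75 on the Lmo2 arrays, detected on 1 of 3. Cx3cr1 fell by 1.58 ± 0.32 (SE; limma adjusted p = 0.00548).

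Cxcr6, the Cxcl16 receptor of innate-like and tissue-resident lymphocytes, ranged from 6.62 to 8.18 on wild-type arrays with a median of 7.34. It lay at 6.32, 5.25 and 6.23 on the Lmo2 arrays, and the highest of these came close to the lowest wild-type array. Cxcr6 fell by 1.46 ± 0.34 (SE; limma adjusted p = 0.0142). Ccr6, the receptor of Ccl20 on B cells and on interleukin-17-producing lymphocytes, lay at 9.16, 9.32 and 9.72 on wild-type replicates 1 to 3 and at 7.64, 7.12 and 7.36 on the NHD13-named arrays. It lay at 6.99, 5.82 and 6.04 on the Lmo2 arrays, below both wild-type sets but nearer to the NHD13-named one. Ccr6 fell by 2.10 ± 0.57 (SE; limma adjusted p = 0.0307). A further Ccr6 probe gave a difference of -1.26 ± 0.39 (SE; limma adjusted p = 0.0676 with all probes tested).

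The 2 members that rose changed by less. Cxcr4, the Cxcl12 receptor that holds progenitors in the marrow and acts with the pre-T-cell receptor in double-negative cells, ranged from 10.38 to 10.73 on wild-type arrays with a median of 10.45. It lay at 10.81, 10.86 and 11.07 on the Lmo2 arrays, just above all wild-type arrays. Cxcr4 rose by 0.41 ± 0.12 (SE; limma adjusted p = 0.0396). Cxcl10, an interferon-induced ligand of Cxcr3, was not detected on any wild-type array, where its values were 4.40 to 4.85. On the Lmo2 arrays it was detected 3 times, at 5.68, 5.21 and 5.40, close to the dimmest detected probes. Cxcl10 was at least 1.12-fold higher on Lmo2 arrays, the bound being set against the dimmest detected probes (limma adjusted p = 0.00312). The other Cxcl10 probe was detected on 0 arrays and did not show the rise. It lay at 4.67, 4.45 and 4.56 on Lmo2 arrays and at 4.42 to 4.69 on wild-type arrays.

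**Figure D1:**
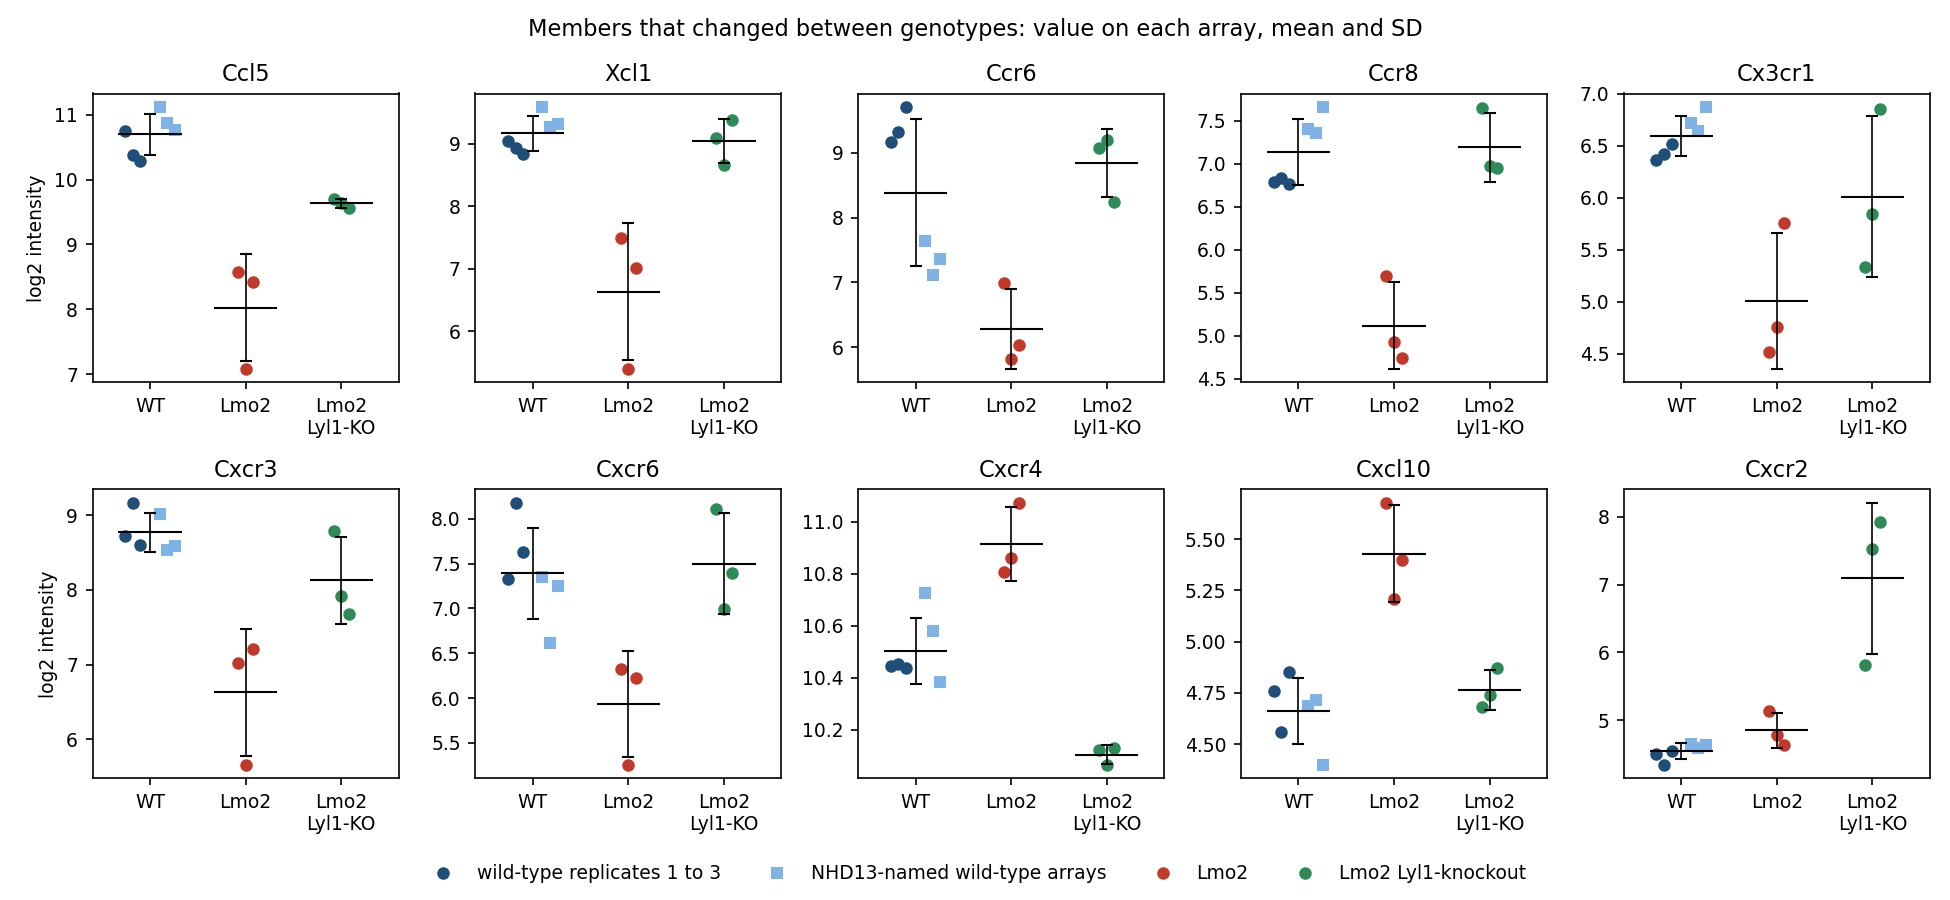
Log2 intensity (vertical axes, a scale per gene) of the 10 members that passed the test between any 2 genotypes, with 1 point per array, the group mean as a line and the SD as a bar; squares are the NHD13-named wild-type arrays. Ccl5 lies at 7.08 to 8.57 on the Lmo2 arrays and at 10.28 or above on all wild-type arrays, and Cxcr2 is at 5.82 or above only on the Lmo2 Lyl1-knockout arrays.

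The other 14 tested members did not pass. The nearest by its tested probe was Ccl3, a ligand of Ccr1, with a difference of -0.86 ± 0.31 (SE; limma adjusted p = 0.0915). It was detected on 5 of 6 wild-type arrays, at 4.90 to 6.24 over all 6, and on none of the Lmo2 arrays, where it lay at 5.23, 4.81 and 4.83. The groups overlapped through the single undetected wild-type array, replicate 2, and without that array Ccl3 passed at -1.04 (limma adjusted p = 0.0180). Ccl25, the ligand that brings Ccr9-bearing cells into the thymus, lay at 6.96 to 7.85 on wild-type arrays and at 7.57, 7.99 and 8.35 on the Lmo2 arrays, a difference of 0.57 ± 0.21 (SE; limma adjusted p = 0.112). A further Ccl25 probe gave 0.77 ± 0.23 (SE, limma adjusted p = 0.0547 with all probes tested). Another gave 0.42 ± 0.27 (SE, limma adjusted p = 0.396 with all probes tested). Ccl27a, a skin chemokine, was between 8.26 and 8.96 on 11 arrays and at 5.99 on Lmo2 replicate 1, and its other probe was also lowest on that array, at 4.51. Ccl27a has near-identical copies in the mouse genome, so its probes may not report 1 gene. The differences of the remaining 11 members, Ccl4, Ccl6, Ccl9, Ccl11, Cxcl12, Ccr2, Ccr7, Ccrl2, Cxcr2, Cxcr5 and Ackr4, lay between -0.63 for Ccrl2 and 0.51 for Ccl9. Against the NHD13-named arrays alone, Ccl9 passed at 1.30 (limma adjusted p = 0.0328). Ccrl2 passed there at -1.13 (limma adjusted p = 0.0275) and Ccl3 at -1.07 (limma adjusted p = 0.0263). More of all genes passed there as well than against all wild-type arrays.

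Ccl5, Xcl1, Cxcr3 and Ccr8 passed against wild-type under all 25 alternatives, while the calls of Cxcr4 and Ccr6 were the least stable. Cxcr4 missed the threshold in 18 of 25, with limma adjusted p = 0.0504 without Lmo2 replicate 1, 0.0611 without replicate 2, 0.137 without replicate 3 and 0.0581 to 0.0802 without each of wild-type replicates 1 to 3, NHD13-named arrays 2 and 3 or the Lmo2 Lyl1-knockout replicates in turn. Ccr6 gave limma adjusted p = 0.0995 without Lmo2 replicate 2 and also without replicate 3, 0.0571 and 0.0508 without wild-type replicates 1 and 2, -1.09 (limma adjusted p = 0.0505) against the NHD13-named arrays alone and -1.36 (limma adjusted p = 0.173) with array weights. Cxcr6 gave -1.22 (limma adjusted p = 0.0721) with array weights, -1.12 (limma adjusted p = 0.0666) without Lmo2 replicate 2 and -1.14 (limma adjusted p = 0.0531) against the NHD13-named arrays alone, and Cx3cr1 gave -1.43 (limma adjusted p = 0.0737) against wild-type replicates 1 to 3 alone. With arrays scaled to a common median instead of quantile-normalized, 7 members fell and 0 rose, Cxcr4 and Cxcl10 having higher means but limma adjusted p = 0.375 and 0.0641.

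Natural killer and innate lymphoid markers, with the members left out, moved with the 7 members that fell. Of 12 such markers tested 10 were lower on Lmo2 arrays and 0 were higher, with Klra3 at -3.24 ± 0.30 (SE; limma adjusted p = 1.79e-05), Klra10 at -3.16 ± 0.29 (SE; limma adjusted p = 1.3e-05) and Klra7 at -2.72 ± 0.40 (SE; limma adjusted p = 0.000601), all Ly49 receptors. Their mean level was 9.12 to 9.45 on wild-type arrays and 7.57, 6.76 and 7.69 on Lmo2 arrays, lowest on the replicate that was lowest for 5 of the 7 members. Of the 5 defining markers, Klra8 was undetected on the 3 Lmo2 arrays and also on 4 of the 6 wild-type arrays, and the others were detected on all of them. Among mature T-cell markers 3 of 7 were lower and 1 higher, with Ctla4 at -3.01 ± 0.29 (SE; limma adjusted p = 2.05e-05), and the list's mean was 9.48 to 9.80 on wild-type and 8.25 to 9.11 on Lmo2 arrays, with Cd5 undetected on both. B-lineage markers, 2 of 8 lower, had means of 6.90 to 7.49 on wild-type and 6.09 to 6.90 on Lmo2 arrays, and Pax5 was undetected on all of these arrays except wild-type replicate 3. Dendritic markers, 3 of 10 lower, had means of 8.37 to 9.35 and of 7.67 to 8.46, and Itgax was undetected on all 12 arrays.

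Markers of thymocyte stages moved as well. Double-positive markers, 4 of 7 lower and 1 higher, had means of 9.49 to 9.78 on wild-type and 8.93 to 8.94 on Lmo2 arrays, with Cd8b1 at -2.25 ± 0.24 (SE; limma adjusted p = 6.53e-05) and Cd8a undetected on all 12 arrays. Of 14 double-negative markers 3 were lower and 1 was higher, Ptcra, the pre-T-cell receptor alpha chain, at -2.67 ± 0.34 (SE; limma adjusted p = 0.000227), Rag1, the recombinase, at -1.52 ± 0.15 (SE; limma adjusted p = 3.05e-05) and Kit, a receptor of early progenitors, at 1.65 ± 0.38 (SE; limma adjusted p = 0.0122). Their means were 11.55 to 11.70 on wild-type and 11.24 to 11.74 on Lmo2 arrays. Macrophage and monocyte markers, 2 of 6 higher and 0 lower, had means of 5.83 to 6.46 and 6.34 to 7.69. Gamma-delta T-cell markers, 2 of 5 lower and 1 higher, had means of 9.67 to 9.99 and 8.39 to 10.50. Neutrophil markers, 1 of 11 lower, had means of 5.62 to 8.83 and 5.06 to 6.63. The part of any of these cell types or stages in the members' differences was not tested.

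**Figure D2:**
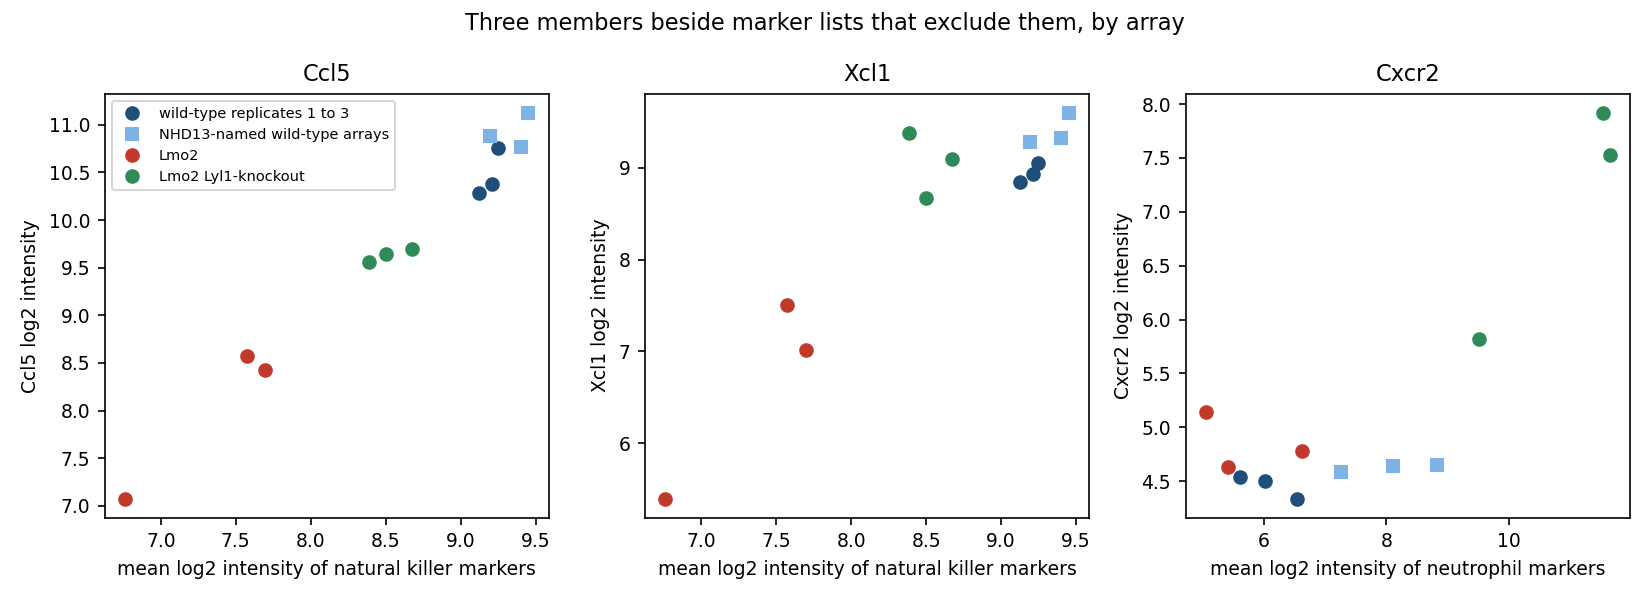
Log2 intensity of Ccl5, Xcl1 and Cxcr2 (vertical axes) against the mean log2 intensity of a marker list without any member (horizontal axes; natural killer and innate lymphoid for Ccl5 and Xcl1, neutrophil for Cxcr2), with 1 point per array. The Lmo2 arrays lie at the low end of the natural killer axis, at 6.76 to 7.69, and the Lmo2 Lyl1-knockout arrays at the high end of the neutrophil axis, at 9.50 to 11.64.

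The comparison of Lmo2 Lyl1-knockout with Lmo2 arrays asked how the same genes differ when Lyl1 is absent. Ccr6, Xcl1, Cxcr2, Ccr8, Ccl5, Cxcr6 and Cxcr3 rose, and Cxcr4 and Cxcl10 fell. The 7 that rose were 30.4% of the members, beside 4.76% of all genes, and the 2 that fell were 8.70%, beside 5.54% of all genes. Among them, Cxcr2 and Cxcl10 each entered the test only through the 3 arrays of the group where they are high. The median member difference was 0.40 and that of all genes 0.00. The 9 members did not overlap between groups, and 10 of 23 did not overlap, beside 27.2% of all genes. This comparison shares its Lmo2 arrays with the previous one, so opposite signs are partly built in.

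Xcl1 lay at 9.10, 8.67 and 9.38 on the Lmo2 Lyl1-knockout arrays against 7.50, 5.40 and 7.01 on the Lmo2 arrays, and rose by 2.41 ± 0.42 (SE, n = 3 and 3; limma adjusted p = 0.00260). Ccl5 lay at 9.70, 9.64 and 9.56 and rose by 1.61 ± 0.34 (SE; limma adjusted p = 0.00799). Its 3 values were close together, above all Lmo2 arrays and below all wild-type arrays. Ccl3 was detected on all 3 Lmo2 Lyl1-knockout arrays, at 5.38, 6.41 and 6.50, and on none of the Lmo2 arrays, with a difference of 1.14 ± 0.35 (SE; limma adjusted p = 0.0625) that did not pass. It passed without Lmo2 Lyl1-knockout replicate 1, at 1.50 (limma adjusted p = 0.0176), and without wild-type replicate 2, which enters only through the shared spread (limma adjusted p = 0.0218). Ccl4, encoded next to Ccl3, lay at 7.41 to 7.73 and differed by 0.40 ± 0.28 (SE; limma adjusted p = 0.455).

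Among the receptors, Ccr8 lay at 7.65, 6.97 and 6.95 on the Lmo2 Lyl1-knockout arrays and rose by 2.07 ± 0.31 (SE; limma adjusted p = 0.000945). Ccr6 lay at 9.08, 9.20 and 8.24 and rose by 2.56 ± 0.66 (SE; limma adjusted p = 0.0266), a 5.89-fold higher intensity. Both receptors were above every Lmo2 array on every Lmo2 Lyl1-knockout array. The further Ccr6 probe rose by less, 1.25 ± 0.45 (SE; limma adjusted p = 0.136 with all probes tested), and did not pass. Cxcr6 lay at 8.11, 6.99 and 7.40 and rose by 1.56 ± 0.40 (SE; limma adjusted p = 0.0236). Cxcr3 lay at 8.79, 7.91 and 7.68 and rose by 1.50 ± 0.38 (SE; limma adjusted p = 0.0253). For both, replicate 1 was the highest of its group. Cx3cr1, encoded next to Ccr8 on chromosome 9, lay at 5.33, 5.85 and 6.85, overlapped the Lmo2 arrays, and did not pass at 1.00 ± 0.37 (SE; limma adjusted p = 0.115).

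Cxcr2, the receptor by which neutrophils follow Cxcl1 and Cxcl2, was detected on the 3 Lmo2 Lyl1-knockout arrays and on no other array. Its values were 5.82, 7.53 and 7.92 there, against 5.14, 4.78 and 4.63 for Lmo2 and 4.34 to 4.65 for wild-type arrays. Replicate 1 was the lowest of the 3. By this tested probe, Cxcr2 was at least 3.52-fold higher than on Lmo2 arrays (limma adjusted p = 0.00284). The other Cxcr2 probe was detected on 0 arrays and did not show the rise. It lay at 4.53, 4.59 and 4.63 on Lmo2 Lyl1-knockout arrays, at 5.23, 4.59 and 4.47 on Lmo2 arrays and at 4.50 to 4.69 on wild-type arrays. No probe of the ligand Cxcl2 was detected on enough arrays to be tested. It had a probe detected on 2 arrays, both of them Lmo2 Lyl1-knockout arrays: 6.24 on replicate 2 and 6.24 on replicate 3. These were the arrays with the highest Cxcr2. The other Cxcl2 probe was detected on 1 array, Lmo2 replicate 1, at 5.42, where Cxcr2 was undetected. Cxcr1, encoded next to Cxcr2, was detected on 1 array, Lmo2 Lyl1-knockout replicate 1, at 5.65, where Cxcr2 was the lowest of this group.

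Cxcr4 lay at 10.12, 10.06 and 10.13 on the Lmo2 Lyl1-knockout arrays, below every array of the other groups, and fell by 0.81 ± 0.14 (SE; limma adjusted p = 0.00196). Cxcl10 lay at 4.68, 4.74 and 4.87 and was not detected. It was at least 1.19-fold lower than on Lmo2 arrays (limma adjusted p = 0.0191), by the tested probe. The other Cxcl10 probe was detected on 0 arrays. On their tested probes, Cxcr4 and Cxcl10 were highest on the Lmo2 arrays of the 3 genotypes. The 14 members that did not pass include Ccr2, the monocyte chemokine receptor, at 0.48 ± 0.21 (SE; limma adjusted p = 0.191), which passed without Lmo2 Lyl1-knockout replicate 3 at 0.71 (limma adjusted p = 0.0455), and Ccl25 at -0.59 ± 0.25 (SE; limma adjusted p = 0.176).

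Xcl1 and Ccr8 rose under all 25 alternatives, and Cxcr4 fell in 24 of 25, missing only with arrays scaled to a common median (-0.78, limma adjusted p = 0.164). Under that scaling 7 members rose and 0 fell, and of all genes called 60.5% were higher, against 46.2% with quantile normalization. With only the 6 arrays of the compared groups in the fit, 3 members rose. Ccl5, Cxcr2, Cxcr3 and Cxcr6 missed the threshold there, at limma adjusted p = 0.0621, 0.0555, 0.134 and 0.0659. Fewer of all genes passed in either direction in this fit too, so the lost calls are not particular to the members. Leaving out single arrays ended some calls. Ccr6 gave limma adjusted p = 0.0721 without Lmo2 replicate 2, 0.0808 without Lmo2 replicate 3, 0.0873 without Lmo2 Lyl1-knockout replicate 1 and 0.0985 without its replicate 2. Cxcr3, which missed the threshold in 7 of 25 alternatives, gave 1.01 (limma adjusted p = 0.0546) without Lmo2 replicate 2, 1.16 (limma adjusted p = 0.110) without Lmo2 Lyl1-knockout replicate 1 and 1.60 (limma adjusted p = 0.0530) without its replicate 2. Cxcr6, which missed it in 6 of 25, gave 1.22 (limma adjusted p = 0.0733) without Lmo2 replicate 2, 1.26 (limma adjusted p = 0.103) without Lmo2 Lyl1-knockout replicate 1 and 1.62 (limma adjusted p = 0.0627) without its replicate 3. Cxcl10, which missed it in 8 of 25, gave limma adjusted p = 0.0664 without Lmo2 replicate 1, and 0.0759 and 0.0684 without Lmo2 Lyl1-knockout replicates 1 and 2. Cx3cr1 passed without Lmo2 replicate 3, at 1.37 (limma adjusted p = 0.0286), and without Lmo2 Lyl1-knockout replicate 1, at 1.34 (limma adjusted p = 0.0455).

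Marker lists moved here too. Of 12 natural killer and innate lymphoid markers 7 were higher on Lmo2 Lyl1-knockout arrays and 0 were lower, with Fcer1g at 2.46 ± 0.28 (SE; limma adjusted p = 0.000125) and Klrd1 at 2.03 ± 0.28 (SE; limma adjusted p = 0.00051), and their mean was 8.68, 8.50 and 8.39 there, with Klra8 still undetected. Of 11 neutrophil markers 10 were higher, with Lcn2 at 7.02 ± 1.00 (SE; limma adjusted p = 0.000612), Ltf at 6.89 ± 0.93 (SE; limma adjusted p = 0.000442) and Ngp at 6.88 ± 0.89 (SE; limma adjusted p = 0.000316), all granule proteins. The neutrophil mean was 9.50, 11.64 and 11.53 on the Lmo2 Lyl1-knockout arrays, lowest on replicate 1 as Cxcr2 was. Lmo2 arrays had 5.06, 6.63 and 5.42, and wild-type arrays 5.62 to 8.83. All 5 defining neutrophil markers, S100a8, S100a9, Ngp, Camp and Ltf, were detected in each group on some array. Ccrl2, encoded next to Ltf, did not pass, at 0.37 ± 0.40 (SE; limma adjusted p = 0.667).

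Among the other lists, some moved with the members and some did not. Of 7 double-positive markers 2 were higher and 0 lower on Lmo2 Lyl1-knockout than on Lmo2 arrays, Cd8b1 at 2.06 ± 0.28 (SE; limma adjusted p = 0.000477) and Ets2 at 1.61 ± 0.18 (SE; limma adjusted p = 0.00011), and the list's mean was 9.43 to 9.54. Of 7 mature T-cell markers 2 were higher and 0 lower, Ctla4 at 2.68 ± 0.33 (SE; limma adjusted p = 0.000225) and Icos at 2.39 ± 0.58 (SE; limma adjusted p = 0.0196), with a mean of 9.58 to 9.73. Of 14 double-negative markers 3 were higher and 2 lower, Ptcra at 2.73 ± 0.39 (SE; limma adjusted p = 0.00065) and Kit at -2.78 ± 0.44 (SE; limma adjusted p = 0.00121) among them, with a mean of 11.43 to 11.48. Dendritic markers, 1 of 10 higher, had means of 8.32 to 8.79, and B-lineage markers, 1 of 8 higher, had means of 6.59 to 7.26. Gamma-delta T-cell markers had 1 of 5 higher and 1 lower, with means of 9.35 to 10.09, and 0 of 6 macrophage and monocyte markers passed by limma's test, with means of 6.63 to 7.48. Stroma markers, given with the stromal ligands, had 2 of 3 lower. The part of any of these cell types or stages in the members' values was not tested.

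**Figure D3:**
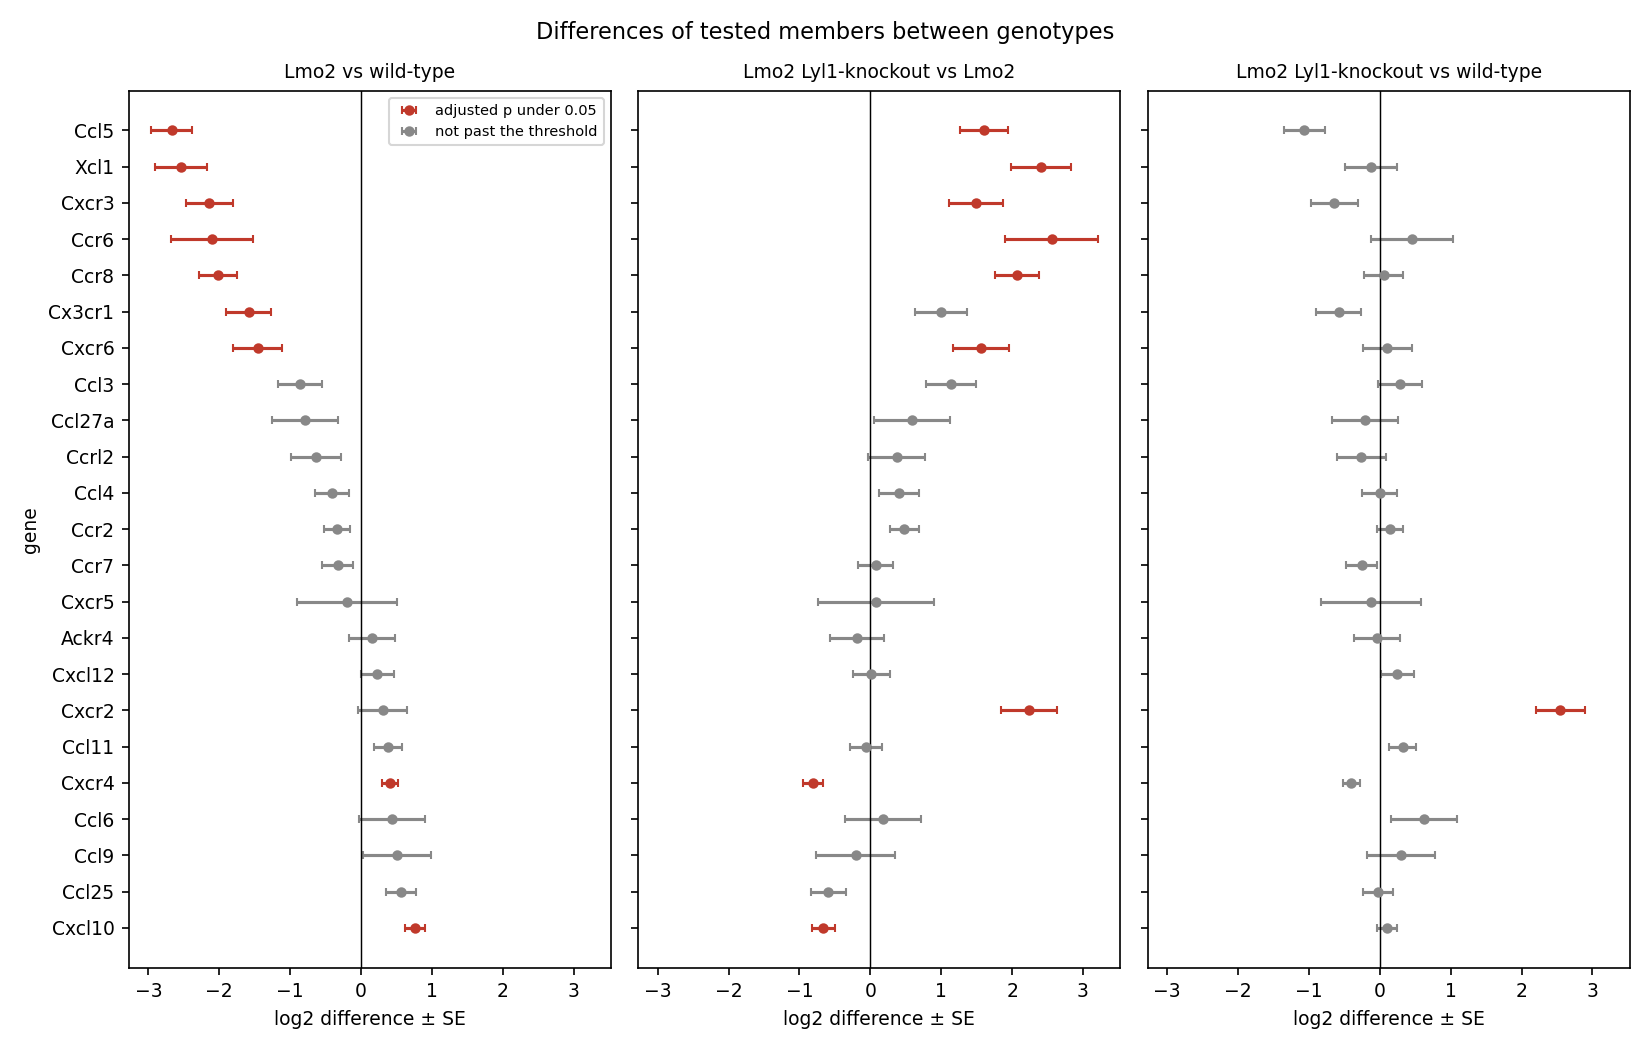
Difference in mean log2 intensity (horizontal axes, with SE bars) of the 23 tested members (rows, ordered by the first comparison) for the 3 comparisons of genotypes; red points passed at an adjusted p under 0.05. The 9 red points of the first panel run from -2.67 for Ccl5 to 0.77 for Cxcl10, and in the third panel only Cxcr2, at 2.55, is red.

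Promoters are shown for 6 members that passed in both of these comparisons and have a single listed start, since they differed with the Lmo2 transgene and with the loss of Lyl1, whose protein complexes are known to meet DNA through E-box and GATA motifs. Promoter entries were matched for 18 of the 23 tested members. Each sequence covers 250 bases before to 50 after the start, on the gene's strand (RefSeq, GRCm38.p6), and capitals mark the E-box CANNTG and the GATA motif AGATAA, searched on both strands. The motifs did not overlap each other in these windows.
Xcl1 (chr1:164935473-164935772, - strand): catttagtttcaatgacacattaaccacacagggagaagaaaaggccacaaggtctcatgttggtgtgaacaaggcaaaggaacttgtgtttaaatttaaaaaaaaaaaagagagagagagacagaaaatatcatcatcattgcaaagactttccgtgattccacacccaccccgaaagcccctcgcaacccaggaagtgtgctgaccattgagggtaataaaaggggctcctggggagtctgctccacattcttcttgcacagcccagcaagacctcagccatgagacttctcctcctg
Cxcl10 (chr5:92348840-92349139, - strand): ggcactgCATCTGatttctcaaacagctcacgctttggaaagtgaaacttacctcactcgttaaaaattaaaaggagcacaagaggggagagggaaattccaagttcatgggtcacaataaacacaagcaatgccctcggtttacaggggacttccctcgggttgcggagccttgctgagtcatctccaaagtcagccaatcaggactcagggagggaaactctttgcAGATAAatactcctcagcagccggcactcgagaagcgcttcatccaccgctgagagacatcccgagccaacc
Ccr8 (chr9:120091883-120092182, + strand): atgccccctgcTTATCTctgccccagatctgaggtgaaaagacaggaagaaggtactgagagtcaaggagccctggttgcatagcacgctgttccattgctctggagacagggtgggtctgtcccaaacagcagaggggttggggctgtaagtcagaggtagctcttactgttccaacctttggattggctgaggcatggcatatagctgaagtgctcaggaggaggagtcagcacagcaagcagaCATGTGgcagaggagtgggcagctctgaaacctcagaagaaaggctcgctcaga
Cxcr3 (chrX:101734098-101734397, - strand): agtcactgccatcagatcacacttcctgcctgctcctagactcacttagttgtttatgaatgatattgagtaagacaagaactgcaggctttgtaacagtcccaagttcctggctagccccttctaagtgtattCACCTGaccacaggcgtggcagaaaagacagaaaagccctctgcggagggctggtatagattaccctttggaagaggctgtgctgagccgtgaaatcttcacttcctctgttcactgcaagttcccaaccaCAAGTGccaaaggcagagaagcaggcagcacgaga
Cxcr6 (chr9:123806227-123806526, + strand): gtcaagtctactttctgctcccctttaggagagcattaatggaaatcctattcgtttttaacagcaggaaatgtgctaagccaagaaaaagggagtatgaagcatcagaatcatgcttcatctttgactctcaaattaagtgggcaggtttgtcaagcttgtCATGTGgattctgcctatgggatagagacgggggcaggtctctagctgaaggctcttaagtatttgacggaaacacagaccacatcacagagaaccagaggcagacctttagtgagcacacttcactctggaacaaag
Cxcr4 (chr1:128592250-128592549, - strand): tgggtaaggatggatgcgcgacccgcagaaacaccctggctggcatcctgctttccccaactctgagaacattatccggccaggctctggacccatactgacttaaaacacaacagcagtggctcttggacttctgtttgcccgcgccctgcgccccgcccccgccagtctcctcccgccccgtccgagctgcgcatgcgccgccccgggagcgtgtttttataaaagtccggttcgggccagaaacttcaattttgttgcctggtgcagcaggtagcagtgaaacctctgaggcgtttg
Of all 32851 promoters of this length, 72.3% held an E-box and 11.2% the GATA motif. Cxcr3 had 2 E-boxes, Ccr8, Cxcr6 and Cxcl10 had 1 each, and neither letter pattern was in the Xcl1 and Cxcr4 windows. Ccr8, which fell on Lmo2 arrays, and Cxcl10, which rose, each had 1 GATA motif. A match describes letters and shows no binding, and no match says only that these letters are not in the window.

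The comparison of Lmo2 Lyl1-knockout with wild-type arrays asked what remained different. Cxcr2 alone rose, 1 of 23 members (4.35%) beside 0.637% of all genes, and 0 members fell, beside 0.399% of all genes, by limma's test at an adjusted p under 0.05. It entered the test only through the 3 Lmo2 Lyl1-knockout arrays, so this share gives no separate support for its rise. On its tested probe, Cxcr2 was at least 3.53-fold higher (limma adjusted p = 0.00344). Against wild-type replicates 1 to 3 alone it missed the threshold, at 2.63 (limma adjusted p = 0.0525), and 4 of 23 members did not overlap between groups, beside 8.58% of all genes. Neutrophil markers moved with it, 7 of 11 being higher and 0 lower, Ngp by 5.38 ± 0.77 (SE; limma adjusted p = 0.00420). Natural killer and innate lymphoid markers had 3 of 12 lower and 0 higher, Klra10 at -1.70 ± 0.29 (SE; limma adjusted p = 0.00999), with means of 8.39 to 8.68 against 9.12 to 9.45 on wild-type arrays. The part of these cells was not tested.

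Besides Cxcr2, the 3 members without overlap were Ccl5, Cxcr4 and Ccl11. Ccl5 was lower by -1.06 ± 0.29 (SE; limma adjusted p = 0.139) and Cxcr4 by -0.40 ± 0.12 (SE; limma adjusted p = 0.182), and neither passed. Without Lmo2 replicate 2, which enters only through the shared spread, Ccl5 passed at the same difference (limma adjusted p = 0.0123). With array weights both passed, Ccl5 at -1.20 (limma adjusted p = 0.00316) and Cxcr4 at -0.44 (limma adjusted p = 0.0127). In both settings more of all genes passed too, and many more with array weights, so these calls are not particular to the members. Xcl1, Ccr8, Cxcr6 and Ccr6 had differences of -0.12 ± 0.37, 0.06 ± 0.27, 0.11 ± 0.34 and 0.46 ± 0.57 (SE), so their wild-type and Lmo2 Lyl1-knockout levels were not told apart with this spread. Cxcr3 stood at -0.65 ± 0.33 (SE, limma adjusted p = 0.462) and Cx3cr1 at -0.58 ± 0.32 (SE, limma adjusted p = 0.483), below wild-type but not past the threshold. Against the NHD13-named arrays alone Ccr6 passed, at 1.47 (limma adjusted p = 0.0337), and Ccl5 passed at -1.29 (limma adjusted p = 0.0470). Many more of all genes passed there as well than against all wild-type arrays.

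**Figure D4:**
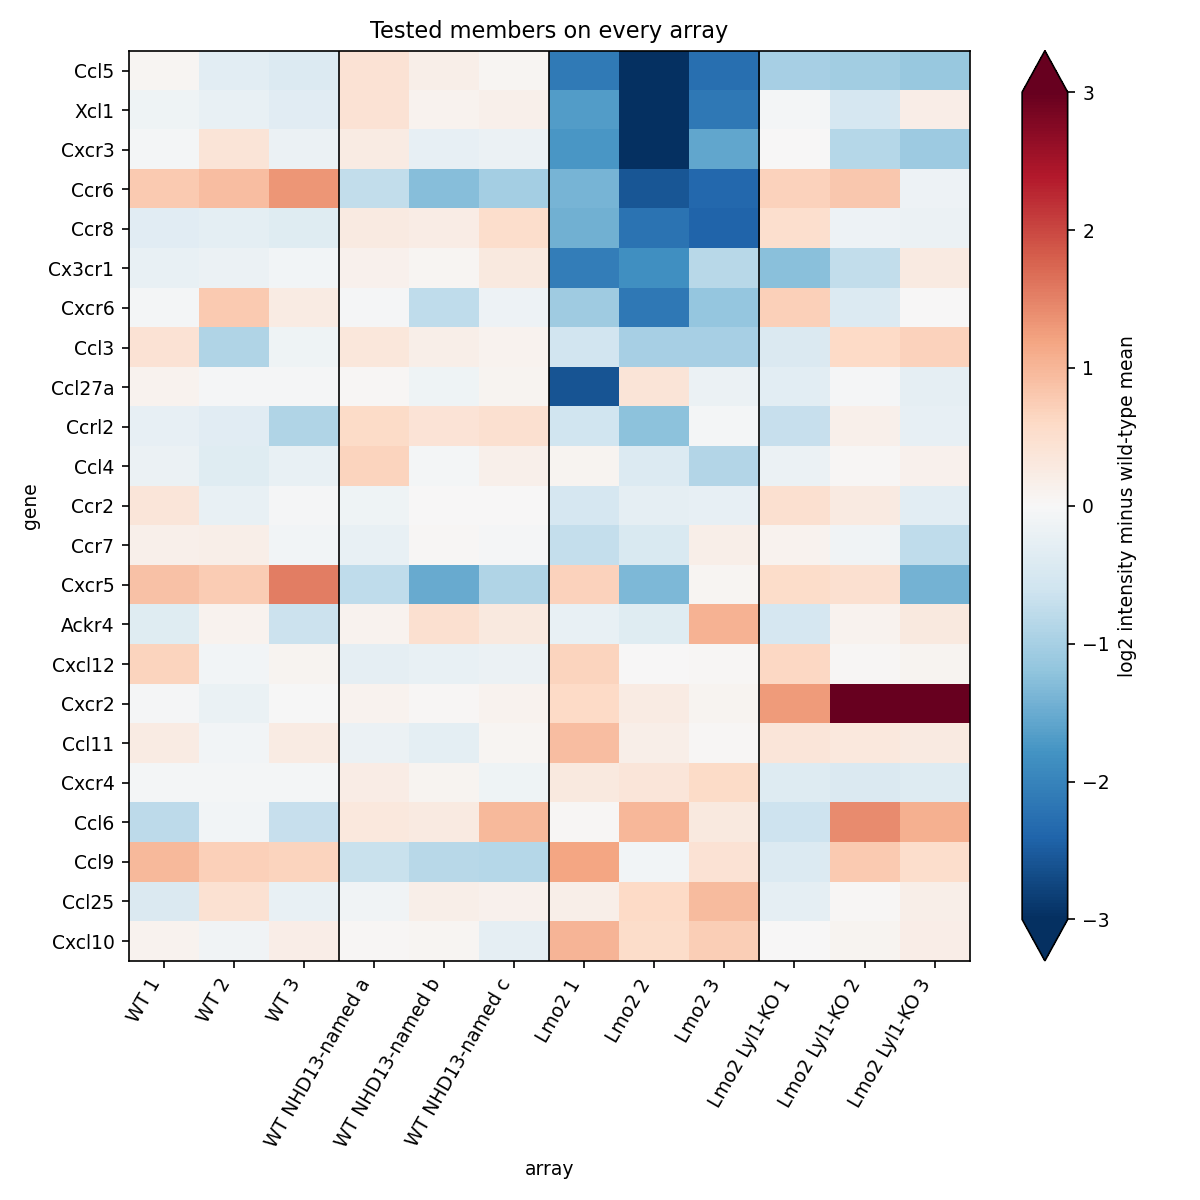
Log2 intensity of the 23 tested members (rows) on the 12 arrays (columns) minus the gene's mean over the 6 wild-type arrays, with colours ending at 3 in either direction. The upper 7 rows are blue on the Lmo2 arrays, Ccl27a is blue on Lmo2 replicate 1 alone, Cxcr2 is red on the Lmo2 Lyl1-knockout arrays, and Ccr6, Cxcr5 and Ccl9 divide the wild-type arrays.

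The wild-type arrays themselves fell into sets for some members. Ccr6 was lower in the NHD13-named set than in wild-type replicates 1 to 3, by -2.03 ± 0.33 (SE, n = 3 and 3; limma adjusted p = 0.0113). Its further probe lay at 6.50, 6.51 and 6.36 against 7.76, 7.67 and 7.97, the same order. Ccl9, a ligand of Ccr1 made by myeloid and other cells, lay at 5.45, 5.30 and 5.27 on the NHD13-named arrays and at 7.10, 6.84 and 6.78 on the others. The sets stood apart, and Ccl9 differed by -1.57 ± 0.33 (SE; limma adjusted p = 0.0236). These 2 of 23 members stood beside 3.49% of all genes lower and, with 0 members higher, 3.15% of all genes higher by limma's test.

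Cxcr5, the Cxcl13 receptor of B cells and follicular helper T cells, lay at 6.29, 5.55 and 6.16 on the NHD13-named arrays and at 7.93, 7.81 and 8.60 on the others. The sets did not overlap, and the tested probe just missed the threshold at -2.11 ± 0.57 (SE; limma adjusted p = 0.0513). Its 2 further probes gave -1.90 ± 0.23 (limma adjusted p = 0.00825 with all probes tested) and -1.91 ± 0.57 (SE; limma adjusted p = 0.0708). Ccrl2 was the member nearest to the threshold in the other direction, at 0.99 ± 0.30 (SE; limma adjusted p = 0.0676). Between these sets 12 of 23 members did not overlap, beside 39.0% of all genes. B-lineage markers had means of 7.30 to 7.49 on wild-type replicates 1 to 3 and 6.90 to 6.92 on the NHD13-named arrays, and 0 of 8 passed by limma's test. Pax5 was detected on wild-type replicate 3 alone. Macrophage and monocyte markers had means of 6.29 to 6.46 and 5.83 to 6.15, which did not overlap, with a median difference of -0.54, and 0 of 6 passed by limma's test. Neutrophil markers had means of 5.62 to 6.54 and 7.26 to 8.83, and 4 of 11 were higher on the NHD13-named arrays, S100a9 by 3.30 ± 0.76 (SE; limma adjusted p = 0.0305). Dendritic markers had means of 9.23 to 9.35 and 8.37 to 8.63, with 1 of 10 lower, and the part of any of these cells was not tested.

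Under common-median scaling the median difference of all genes between the wild-type sets moved by 0.26, 80.2% of genes called were higher against 47.5%, and Ccl9 missed the threshold at -1.38 (limma adjusted p = 0.0532). Ccl9 also missed it without wild-type replicate 2 or 3 (limma adjusted p = 0.0684 and 0.0737) and without NHD13-named array 1, 2 or 3 (limma adjusted p = 0.0597, 0.0826 and 0.0944), and Ccr6 without wild-type replicate 3 (-1.87, limma adjusted p = 0.0558) or NHD13-named array 3 (-2.02, limma adjusted p = 0.0555). Cxcr5 passed without Lmo2 replicate 1, 2 or 3 (limma adjusted p = 0.0374, 0.0280 and 0.0380) or Lmo2 Lyl1-knockout replicate 3 (limma adjusted p = 0.0303), which enter only through the shared spread, and so did Ccrl2 without Lmo2 replicate 2 or 3 (limma adjusted p = 0.0364 and 0.0280). Cxcr5 also passed without background correction (-1.04, limma adjusted p = 0.0308) and with the mean of all kept probes (-1.97, limma adjusted p = 0.0271). It passed with an intensity trend and robust variances (limma adjusted p = 0.0466) and with array weights (-2.34, limma adjusted p = 0.00302). With array weights Ccrl2 passed too, at 1.12 (limma adjusted p = 0.00289). Many more of all genes also passed between the wild-type sets with these weights, so the calls are not particular to the members.

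**Figure D5:**
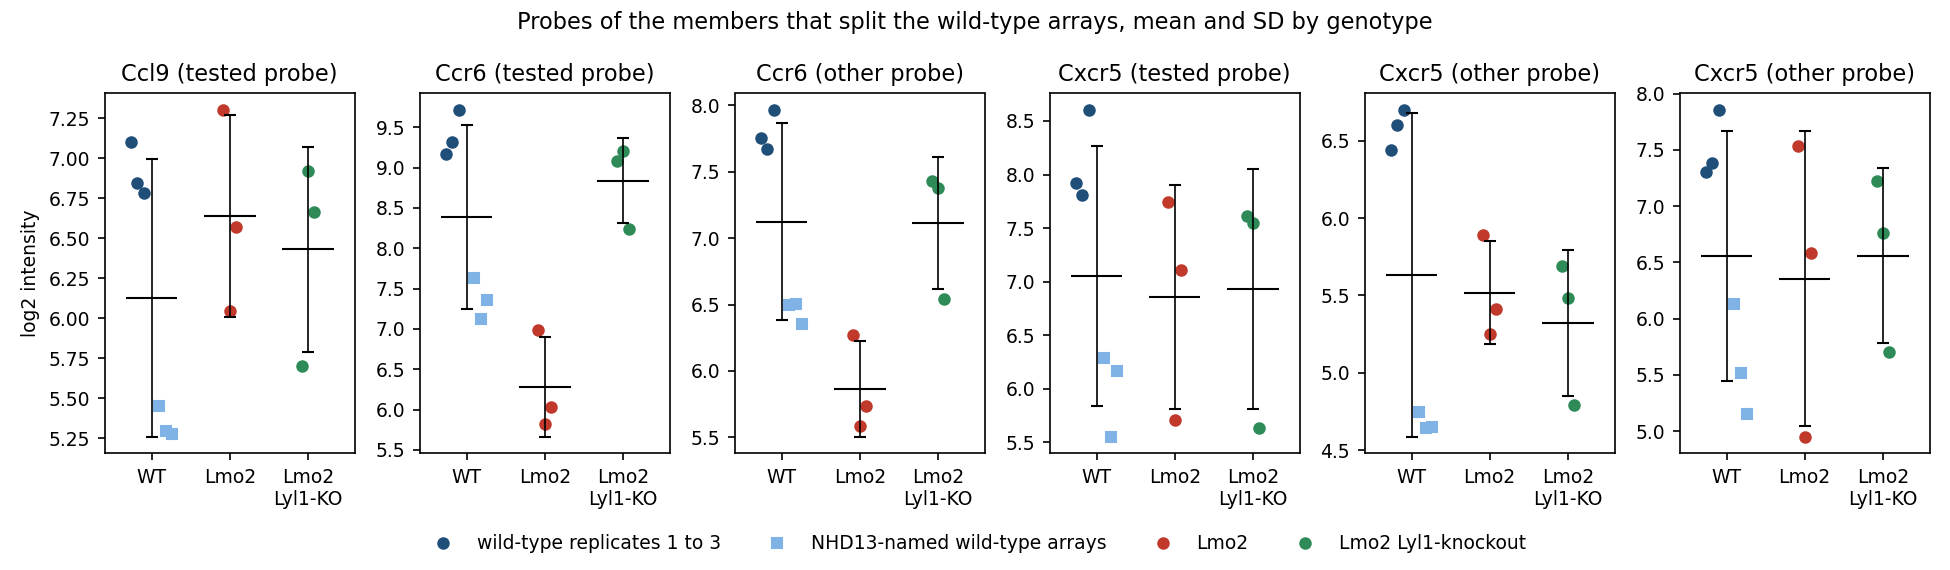
Log2 intensity (vertical axes, a scale per probe) of the kept probes of Ccl9, Ccr6 and Cxcr5 by genotype, with 1 point per array, the genotype mean as a line and the SD as a bar; squares are the NHD13-named wild-type arrays. On every probe shown the NHD13-named arrays lie below wild-type replicates 1 to 3, for the tested Ccr6 probe at 7.12 to 7.64 against 9.16 to 9.72.

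Receptors and their ligands were detected unevenly. Cxcr3, Cxcr6, Ccr6 and Cxcr5 were detected on all 12 arrays. Of the Cxcr3 ligands, Cxcl9 was detected on 1 array, Cxcl10 on 3 and Cxcl11 on 0. Ccl20, the ligand of Ccr6, had 1 probe detected on Lmo2 replicate 1, at 5.68, and another on Lmo2 replicate 2, at 5.35. Cxcl16, the ligand of Cxcr6, was detected on 2 arrays and Cxcl13, the ligand of Cxcr5, on 2. Cxcl13 lay at 7.14 on Lmo2 replicate 1 and at 5.83 on Lmo2 Lyl1-knockout replicate 3. Cxcr4 was detected on 12 arrays and the brighter probe of its ligand Cxcl12 on 3, 1 of each genotype. The reverse held for Xcl1, detected on 12 arrays with its receptor Xcr1 on 0, and for Ccl25, detected on 12 with its receptor Ccr9 on 0.

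The Ccr9 probe did not come near detection on any array, its lowest detection value against the negative-control beads being 0.279, whereas the Ccr4 probe missed it narrowly, at 0.0534. Of the 56 members, 21 had no probe detected on any array, 15 ligands and 6 receptors. For 12 others, 10 ligands and 2 receptors, the most often detected probe was detected on 1 or 2 arrays. The 6 receptors with no probe detected are Ccr1, Ccr1l1, Ccr3, Ccr4, Ccr9 and Xcr1. An undetected probe bounds a level and does not show that the gene is off. Thymic stroma makes Ccl25 and Cxcl12. Of its defining markers Epcam, Foxn1 and Krt5 were undetected on all 12 arrays, Krt8 was detected on 5 and Pdgfra on 2. The 3 stroma markers tested had means of 6.63 to 7.42 on wild-type, 7.26 to 8.55 on Lmo2 and 6.45 to 6.55 on Lmo2 Lyl1-knockout arrays. Pdgfrb, a receptor of mesenchymal cells, was higher on Lmo2 than on wild-type arrays by 1.75 ± 0.50 (SE; limma adjusted p = 0.0380) and stood at -2.43 ± 0.58 (SE; limma adjusted p = 0.0163) between Lmo2 Lyl1-knockout and Lmo2 arrays. The part of stroma in the values of Ccl25 and Cxcl12 was not tested.

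Ackr4, a receptor that takes up Ccl19, Ccl21 and Ccl25 without signalling through G proteins, was detected on all 12 arrays at 5.64 to 7.33. Its highest value was on Lmo2 replicate 3, and its differences were 0.16 ± 0.33, -0.20 ± 0.38 and -0.04 ± 0.33 (SE) in the 3 comparisons of genotypes. These are values of the tested probe, and the other Ackr4 probes were detected on 0 arrays. Ccr7, the receptor of Ccl19 and Ccl21, was detected on 10 arrays at 5.07 to 6.02 over all 12, and its differences were -0.33 ± 0.22, 0.07 ± 0.25 and -0.25 ± 0.22 (SE). Ccl6, a myeloid ligand, ranged from 4.62 to 6.82 and varied within each group by as much as between them. Ccl5, Ccl9, Ccl6, Ccl3 and Ccl4 follow each other on chromosome 11, and in the first comparison their differences were -2.67, 0.51, 0.44, -0.86 and -0.40, so that Ccl5 alone of this row passed.

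Genes that act with the receptors were counted from fixed lists. Of 15 tested G-protein and RGS genes 2 were lower on Lmo2 than on wild-type arrays and 0 higher, Gng2, a G-protein gamma subunit, at -1.63 ± 0.29 (SE; limma adjusted p = 0.00293) and Rgs1, which shortens chemokine signalling, at -1.30 ± 0.34 (SE; limma adjusted p = 0.0247). On Lmo2 Lyl1-knockout against Lmo2 arrays 4 were higher and 0 lower, with Rgs1 at 2.01 ± 0.39 (SE; limma adjusted p = 0.00502). The list medians in these comparisons were -0.08 and 0.27, beside -0.02 and 0.00 for all genes. Of 18 genes of kinase, lipid and Rac signalling 4 were higher and 0 lower in the first comparison, and 0 were higher and 3 lower in the second, with medians of 0.16 and -0.17. Tiam1, a Rac exchange factor, stood at 0.76 ± 0.17 (SE; limma adjusted p = 0.0118) and then at -0.90 ± 0.20 (SE; limma adjusted p = 0.0105).

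Of 9 integrin and egress genes, 1 was higher and 1 lower on Lmo2 than on wild-type arrays. Dpp4, a peptidase that trims chemokines such as Cxcl10 and Cxcl12, rose by 1.71 ± 0.19 (SE; limma adjusted p = 6.9e-05), and Itgae, which binds epithelial cadherin, fell by 2.32 ± 0.34 (SE; limma adjusted p = 0.000591). On Lmo2 Lyl1-knockout against Lmo2 arrays Dpp4 stood at -1.72 ± 0.22 (SE; limma adjusted p = 0.000252) and Itgae at 2.57 ± 0.39 (SE; limma adjusted p = 0.000945), with 1 gene of the list higher and 2 lower. Of 7 further chemotactic genes 1 was higher in each comparison and 0 lower. Pf4, a platelet chemokine outside the naming rule, was at least 2.48-fold higher on Lmo2 than on wild-type arrays (limma adjusted p = 0.00516). Fpr2, a formyl-peptide receptor of neutrophils, was at least 25.2-fold higher on Lmo2 Lyl1-knockout than on Lmo2 arrays (limma adjusted p = 0.000582). Across the 3 comparisons of genotypes, 10 of the 23 members (43.5%) passed at least once, beside 15.6% of all genes. These include Cxcr2 and Cxcl10, which entered the test only through the group where they are high.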

How the data were processed

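Illumina MouseWG-6 v2.0 BeadChips measured 12 RNA samples. The deposited raw table holds, per the file headers, a linear intensity per probe and array and a detection p-value beside it. The authors' value table holds log2 values, and the submitters' processing notes list BeadStudio and limma, with no versions; the background method is not stated in these sources. Raw intensities were corrected and quantile-normalized here with neqc (limma 3.58.1, R 4.3.3; offset 16), and this replaced the authors' table as the source of values, because 3 wild-type columns of that table cannot be tied to the raw table by name. On the 9 arrays that can, the log2 values correlated at 0.9999 or more and members differed by at most 0.243; the authors' columns had medians of 4.88 to 4.89, and were otherwise on the same scale and direction. The authors' table was an alternative.

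Probes were kept at a detection p-value under 0.05 on at least 3 arrays, and each gene was read by its brightest kept probe. Of 45281 probes, 34885 had 1 symbol, 18 several and 10378 none, and 34807 matched the RefSeq table. A linear model with a mean per genotype used all 12 arrays (9 residual degrees of freedom); the wild-type sets were compared in a fit with 4 means. Where a probe was detected on no array of the dimmer group, a bound is given: the brighter group's mean over the dimmer group's, in which a value below the array's dimmest detected probe was raised to it. The fit was tested on simulated data. Named genes are Lyl1, every tested member, and up to 3 passing genes per list and comparison, largest difference first. The members, lists and alternatives were chosen with earlier results of these data known. The 25 alternatives changed the background, scaling, filter, probe choice, variance model, weights, block, wild-type set or samples. The number of arrays limits the precision. No array column was left unmapped.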

Additional observations from a re-analysis of the deposited data

How the results depend on the processing

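Of 19 differences called between genotypes, 6 passed under all 25 alternatives: Ccl5, Ccr8, Cxcr3 and Xcl1 between Lmo2 and wild-type arrays, and Ccr8 and Xcl1 between Lmo2 Lyl1-knockout and Lmo2 arrays. No called difference changed sign. The 7 members lower on Lmo2 than on wild-type arrays stayed within 5 to 7 when single arrays were left out. The 2 higher there became 0 with arrays scaled to a common median, 1 with every kept probe tested, 1 with array weights, 1 against wild-type replicates 1 to 3 only, 1 with only the groups compared, and 1 to 2 without single arrays. For Lmo2 Lyl1-knockout against Lmo2 arrays, the 7 higher became 3 with only the groups compared and 4 to 8 without single arrays, and the 2 lower became 0 with a common median and 1 without background correction, with an intensity trend and robust variances or with only the groups compared, and 1 to 2 without single arrays. For Lmo2 Lyl1-knockout against wild-type arrays, the 1 higher (Cxcr2) became 0 against wild-type replicates 1 to 3 only and 2 against the NHD13-named arrays only, and stayed 1 without single arrays, while the 0 lower became 1 without background correction, 2 with array weights, 1 against the NHD13-named arrays only, 1 with only the groups compared and 0 to 1 without single arrays. Between the wild-type sets, the 2 lower became 1 with a common median and 0 to 3 without single arrays, and the 0 higher became 3 with array weights and 0 to 1 without single arrays. With only the groups compared fewer samples estimate the spread. For the other changes the cause was not tested. The number of all genes called changed with the setting as well. It fell with a common median and with the replicate block in each comparison of genotypes. With only the groups compared it fell in both comparisons that include Lmo2 arrays. With array weights it rose strongly between Lmo2 Lyl1-knockout and wild-type arrays and between the wild-type sets. A changed member count is therefore not particular to the members. Deviations of same-numbered arrays correlated at -0.306 to 0.170 for wild-type and Lmo2 and at -0.0589 to 0.166 for wild-type and Lmo2 Lyl1-knockout. For Lmo2 and Lmo2 Lyl1-knockout they correlated at 0.0253 to 0.129. In these pairs of groups, 2, 2 and 5 of 6 arrays correlated best with their own number. With 3 arrays per group, such correlations can neither show nor exclude pairing by number. With the replicate block over replicates 1 to 3 of each group (9 arrays), 0 members were higher on Lmo2 than on wild-type arrays, 1 was lower and 5 were higher on Lmo2 Lyl1-knockout than on Lmo2 arrays, and 0 were higher on Lmo2 Lyl1-knockout than on wild-type arrays. Without background correction dim genes differed by less, for example Ccr8 by -0.73 and Cx3cr1 by -0.52 between Lmo2 and wild-type arrays and Cxcr2 by 0.84 between Lmo2 Lyl1-knockout and Lmo2 arrays, all still past the threshold. The authors' table, the block, the wild-type subsets and the compared groups alone were not run for the wild-type sets. Signal over background limits Cxcl10, Ccl3, Ccr2, Ccl11 and Cxcl12, whose means lay near the dimmest detected probes.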
